A study of Mus musculus with 3 samples.

Results

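The hemangioblast and endothelial genes described here are 10 genes chosen by name: the growth factor receptor genes *Kdr*, *Flt1* and *Tek*, the transcription regulator genes *Etv2*, *Tal1*, *Lmo2* and *Runx1*, and the cell surface genes *Cd34*, *Pecam1* and *Cdh5*. They were 10 of the 55487 genes measured, and 9 of them were among the 17655 genes in use, those that reached 10 counts in 1 library or more. *Cdh5* was below that minimum. The RNA came from embryoid bodies (EBs), which are aggregates that mouse embryonic stem (ES) cells form in suspension and in which early embryonic cell types appear. All EBs were made from wild-type E14K ES cells in medium without LIF, the cytokine that keeps mouse ES cells undifferentiated. There were 3 conditions with 1 library each: EBs collected on day 3 and on day 4 after the solvent DMSO, and EBs collected on day 4 after 30 μM C2 ceramide, a short-chain, cell-permeable ceramide (called ceramide from here on), given from the beginning of day 3. The question behind these conditions was which genes change as the primitive streak forms, and which of them differ when ceramide is added.

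Hemangioblasts are mesoderm cells that leave the primitive streak and can form both blood and endothelial cells. In the mouse embryo, mesoderm cells first express the VEGF receptor KDR, and the ETS transcription factor ETV2 then acts in them upstream of TAL1 and of its partner LMO2. RUNX1 is needed later, when definitive blood cells bud from endothelium, and CDH5, PECAM1, TEK and CD34 are found on endothelium that has already formed. Several of these proteins are not limited to that lineage. PECAM1 is also present on undifferentiated mouse ES cells and FLT1 is also made by trophoblast.

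The 3 libraries held 33619197, 35078820 and 35290094 counts in the order day 3 DMSO, day 4 DMSO and day 4 ceramide. Levels are given in TPM, a transcript abundance scaled by transcript length and library size, so that levels of different genes can be set side by side. Ratios are ratios of TPM, and the words higher and lower stand for a ratio above 2 or below 0.5. The interval beside each log2 ratio is the 95% interval from the counts. It covers counting error only, and PCR copies of a molecule are counted as if they were independent. With 1 library per condition, spread between cultures could not be measured and no difference between conditions could be tested. In bulk RNA, fewer cells of a type and less RNA per cell cannot be told apart.

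The DNA upstream of the genes is shown first for *Kdr*, *Flt1*, *Etv2* and both starts of *Runx1*, genes that were lower with ceramide on day 4, and then for *Tek* and *Cd34*, which were higher with ceramide. The sequences are the 250 bases before each transcription start in RefSeq on GRCm38.p6, written 5′ to 3′ in the direction of transcription. The RefSeq table held promoters for 7 of the 10 genes, and none was printed for *Lmo2*, *Pecam1* and *Cdh5*, nor for *Tal1*, which had few counts. Capitals mark matches to 5 motifs, searched on both strands: the ETS motifs CCGGAA and CAGGAA, the GATA motif AGATAA, the RUNX motif TGTGGT and the T-box motif AGGTGT. No marked matches overlap.
Kdr, chr5:75978456-75978705, minus strand: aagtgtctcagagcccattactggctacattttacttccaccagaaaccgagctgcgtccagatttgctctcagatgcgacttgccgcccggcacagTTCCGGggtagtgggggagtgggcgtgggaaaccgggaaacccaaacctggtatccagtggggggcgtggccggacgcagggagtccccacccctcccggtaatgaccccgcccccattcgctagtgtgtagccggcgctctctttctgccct
Flt1, chr5:147726012-147726261, minus strand: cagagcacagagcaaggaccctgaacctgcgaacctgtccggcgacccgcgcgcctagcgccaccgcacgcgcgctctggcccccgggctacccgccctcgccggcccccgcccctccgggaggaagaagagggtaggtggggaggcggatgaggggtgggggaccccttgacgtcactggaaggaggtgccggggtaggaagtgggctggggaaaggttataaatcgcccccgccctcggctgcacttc
Etv2, chr7:30635853-30636102, minus strand: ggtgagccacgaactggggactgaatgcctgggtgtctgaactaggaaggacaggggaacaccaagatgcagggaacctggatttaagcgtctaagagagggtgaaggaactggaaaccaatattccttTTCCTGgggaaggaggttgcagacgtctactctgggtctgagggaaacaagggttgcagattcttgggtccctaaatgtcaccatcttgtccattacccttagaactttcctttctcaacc
Runx1 downstream start, chr16:92697330-92697579, minus strand: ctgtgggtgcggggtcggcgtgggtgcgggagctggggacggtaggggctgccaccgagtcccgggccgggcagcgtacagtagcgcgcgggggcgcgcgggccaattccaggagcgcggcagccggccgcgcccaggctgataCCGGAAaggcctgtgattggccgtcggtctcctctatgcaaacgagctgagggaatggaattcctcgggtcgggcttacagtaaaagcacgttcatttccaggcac
Runx1 upstream start, chr16:92826075-92826324, minus strand: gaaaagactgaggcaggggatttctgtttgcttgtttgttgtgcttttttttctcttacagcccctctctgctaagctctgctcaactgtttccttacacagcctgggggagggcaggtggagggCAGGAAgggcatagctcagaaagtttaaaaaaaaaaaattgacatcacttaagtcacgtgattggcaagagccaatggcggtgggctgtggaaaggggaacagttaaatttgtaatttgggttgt
Tek, chr4:94739039-94739288, plus strand: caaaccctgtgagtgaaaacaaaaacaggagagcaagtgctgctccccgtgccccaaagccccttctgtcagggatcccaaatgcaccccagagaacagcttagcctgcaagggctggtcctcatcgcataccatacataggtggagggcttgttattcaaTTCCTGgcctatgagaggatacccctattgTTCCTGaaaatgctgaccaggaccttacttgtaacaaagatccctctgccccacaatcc
Cd34, chr1:194938571-194938820, plus strand: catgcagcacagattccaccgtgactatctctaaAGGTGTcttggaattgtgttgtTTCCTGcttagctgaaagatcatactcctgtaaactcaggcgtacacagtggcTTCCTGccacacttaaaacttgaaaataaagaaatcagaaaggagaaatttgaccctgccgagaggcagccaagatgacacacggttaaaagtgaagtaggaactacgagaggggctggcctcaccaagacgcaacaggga
*Kdr* had a CCGGAA match on the other strand, whose first base lay 153 bases before the start. The downstream *Runx1* start had the same motif on its own strand at 106 bases before the start. CAGGAA was found before *Etv2* at 121 bases, before the upstream *Runx1* start at 125 bases, before *Tek* at 89 and 59 bases and before *Cd34* at 194 and 141 bases. *Cd34* also had the T-box motif at 216 bases. Of the 2 *Tal1* promoters, 1 had the GATA motif on the other strand at 205 bases and the other had no match. The *Flt1* sequence had no match to the 5 motifs. An ETS motif was thus present in 6 of the 9 promoters of the 7 genes, and in 35.0% of all promoters of this length. Over those 32536 promoters, CCGGAA was found in 12.1%, CAGGAA in 25.6%, AGATAA in 9.97%, TGTGGT in 14.0% and AGGTGT in 11.9%. The ETS motifs stood before genes of both directions of response, described next. These are matches of letters and no binding was measured.

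From day 3 DMSO to day 4 DMSO, 6 of the 9 genes in use were higher, namely *Kdr*, *Runx1*, *Flt1*, *Tek*, *Lmo2* and *Etv2*. Of all 17655 genes in use, 12.8% were higher. *Cd34* and *Tal1* were lower, as were 9.45% of all genes, and *Pecam1* stayed within 2-fold. With ceramide on day 4, *Runx1*, *Kdr*, *Flt1*, *Etv2* and *Lmo2* were lower than with DMSO on the same day, which makes 5 of 9 genes against 12.3% of all genes. The other 4 genes, *Tal1*, *Cd34*, *Tek* and *Pecam1*, were higher, against 9.97% of all genes. Both comparisons share the day 4 DMSO library, so a high or low value there moves both ratios in opposite directions. The median log2 ratio of the 9 genes was 1.52 for day 4 over day 3 DMSO and -1.42 for ceramide over DMSO on day 4, and the medians of all genes in use were 0.05 and -0.03.

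**Figure D1:**
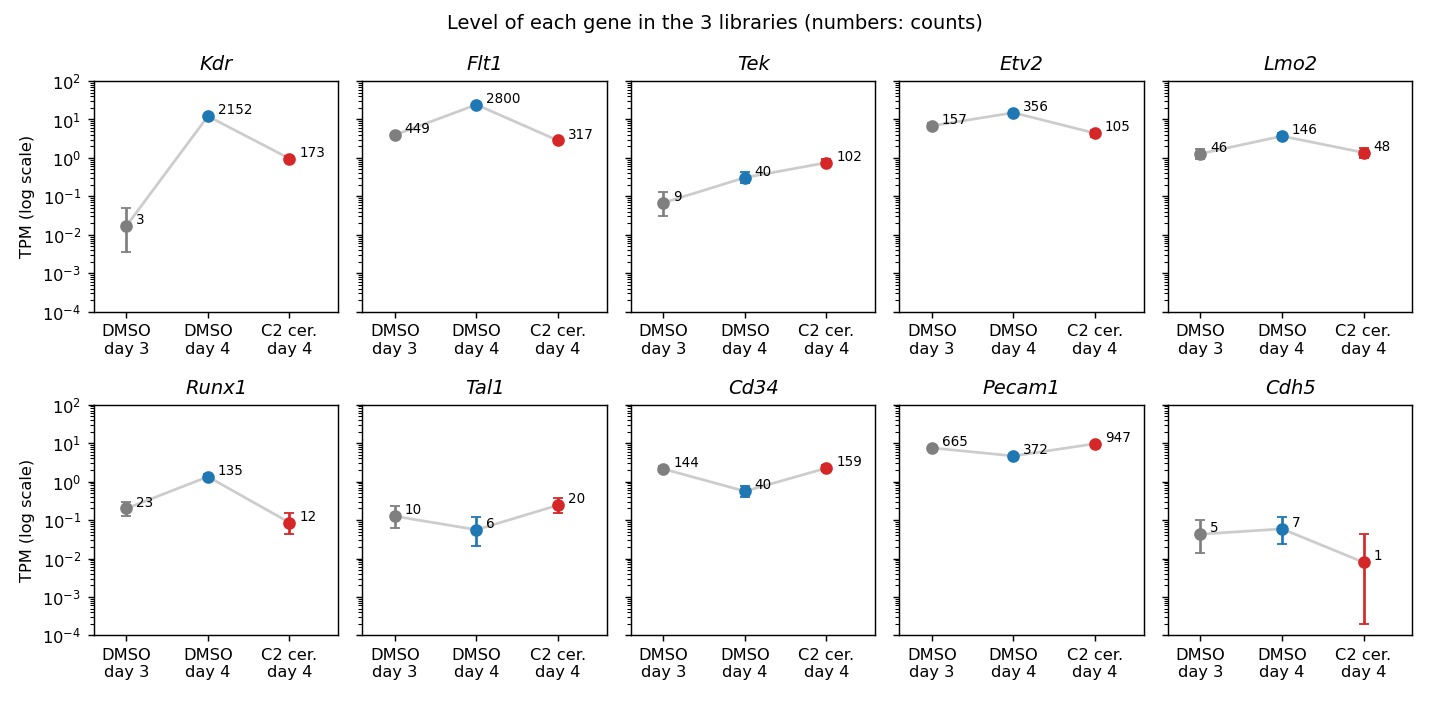
Level of each of the 10 genes in TPM on a log scale in the day 3 DMSO (grey), day 4 DMSO (blue) and day 4 ceramide (red) libraries, with the counts printed beside each point and 95% count intervals as bars. *Kdr*, *Flt1*, *Etv2*, *Lmo2* and *Runx1* are highest in the day 4 DMSO library, and *Cdh5* has at most 7 counts. *Tek*, *Pecam1*, *Cd34* and *Tal1* are highest in the ceramide library, where the bars of *Cd34* and *Tal1* overlap those of day 3 DMSO.

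*Kdr* encodes the main signalling receptor for VEGF-A, and its protein (FLK1) is the usual marker of mesoderm that can form blood and endothelium. *Kdr* lies on the minus strand at chr5:75932827-75978458. Its level was 0.017 TPM on day 3 DMSO, from 3 counts, 12.1 TPM on day 4 DMSO, from 2152 counts, and 0.964 TPM with ceramide, from 173 counts. It was thus near the detection limit on day 3, abundant among these genes on day 4 DMSO, and in between with ceramide. The log2 ratio of day 4 over day 3 DMSO was 9.48 (7.93 to 11.76), a wide interval because it rests on 3 counts. The ceramide level was 12.6-fold lower than DMSO on day 4 (log2 -3.65, -3.89 to -3.43), and its ratio was below that of all but 3.21% of the genes in use. The ceramide level still stood above the day 3 DMSO level, with a log2 ratio of 5.83 (4.25 to 8.12). All *Kdr* reads were assigned to the 30-exon transcript of 1345 codons.

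*Kdr* stands beside the receptor tyrosine kinase genes *Kit* (chr5:75574916-75656722) and *Pdgfra* (chr5:75152292-75198215). *Pdgfra*, the PDGF receptor of early paraxial and cardiac mesoderm, had 0.216, 10.1 and 0.318 TPM in the day 3 DMSO, day 4 DMSO and day 4 ceramide libraries. *Kit*, the receptor for stem cell factor on germ cells, blood progenitors and ES cells, had 6.57, 15.9 and 8.17 TPM. All 3 neighbours were higher on day 4 DMSO than on day 3, with log2 ratios of 9.48 for *Kdr*, 5.55 for *Pdgfra* and 1.28 for *Kit*. With ceramide on day 4, *Pdgfra* had a log2 ratio of -4.99 (-5.38 to -4.62), and *Kit*, at -0.96 (-1.06 to -0.86), stayed within 2-fold.

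*Flt1* encodes VEGF receptor 1, which binds VEGF-A tightly and signals weakly, and which also exists as a secreted form that traps the ligand. *Flt1* lies on the minus strand at chr5:147561604-147726011. Its level was 3.97 TPM on day 3 DMSO, 24.2 TPM on day 4 DMSO and 2.84 TPM with ceramide, from 449, 2800 and 317 counts. It was the most abundant of the 10 genes on day 4 DMSO, and in contrast to *Kdr* it was already well detected on day 3. The log2 ratio of day 4 over day 3 DMSO was 2.61 (2.47 to 2.76). With ceramide it was 8.53-fold lower than DMSO on day 4 (log2 -3.09, -3.27 to -2.92), and it was also slightly below the day 3 DMSO level (log2 -0.48, -0.69 to -0.27), within 2-fold.

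Most *Flt1* reads were not assigned to the full-length receptor. The full-length transcript has 30 exons and 1333 codons, including the kinase domain, and took 3.06%, 8.17% and 6.48% of the *Flt1* TPM in the day 3 DMSO, day 4 DMSO and day 4 ceramide libraries, with 25.0, 417.2 and 39.3 counts. A coding transcript of 13 exons and 688 codons, which ends before the exons of the kinase domain, took 45.4%, 38.8% and 36.7%. A transcript of 12 exons with no annotated coding part took 51.5%, 52.9% and 56.8%. All of these transcripts were higher on day 4 DMSO and lower with ceramide. The full-length transcript had log2 ratios of 4.03 and -3.43 in the 2 comparisons, and the 13-exon transcript had 2.39 and -3.17. Assigning reads to transcripts that share exons is an estimate, and no interval was available for it.

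*Tek* encodes TIE2, the receptor for angiopoietins on endothelial cells and blood stem cells, and lies on the plus strand at chr4:94739289-94874976. It had 0.068 TPM on day 3 DMSO, 0.308 TPM on day 4 DMSO and 0.753 TPM with ceramide, from 9, 40 and 102 counts. *Tek* was low in all libraries, and it was the only one of the 9 genes called higher both on day 4 over day 3 DMSO and with ceramide over DMSO on day 4. The log2 ratios were 2.18 (1.11 to 3.41) and 1.29 (0.75 to 1.86). The ceramide level was 11.1-fold above the day 3 DMSO level (log2 3.47, 2.49 to 4.64).

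*Etv2* encodes the ETS factor that mesoderm needs to form blood and endothelium, and lies on the minus strand at chr7:30633616-30635852. Its level was 6.83 TPM on day 3 DMSO, 15.0 TPM on day 4 DMSO and 4.39 TPM with ceramide, from 157, 356 and 105 counts. It was the second most abundant of the 10 genes in all 3 libraries. The log2 ratio of day 4 over day 3 DMSO was 1.14 (0.86 to 1.42), a smaller ratio than that of *Kdr*, since *Etv2* RNA was already present on day 3. With ceramide it was 3.42-fold lower than DMSO on day 4 (log2 -1.78, -2.10 to -1.46) and was below its day 3 DMSO level (log2 -0.64, -1.01 to -0.27), within 2-fold.

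*Lmo2* encodes a LIM-domain adaptor that joins TAL1 and GATA factors in one complex, and lies on the plus strand at chr2:103957986-103981878. It had 1.29, 3.69 and 1.38 TPM in the day 3 DMSO, day 4 DMSO and day 4 ceramide libraries, from 46, 146 and 48 counts. The library of day 4 DMSO stood apart and the other two were close, with a log2 ratio of day 4 ceramide over day 3 DMSO of 0.10 (-0.51 to 0.72). The log2 ratio was 1.52 (1.03 to 2.03) for day 4 over day 3 DMSO and -1.42 (-1.92 to -0.94) for ceramide over DMSO on day 4, a 2.67-fold lower level. The transcripts from the downstream start had 0.512, 2.49 and 0.496 TPM. Those from the upstream start varied less, with 0.774, 1.21 and 0.887 TPM. An antisense gene, 4931422A03Rik, overlaps *Lmo2* and had at most 3.06 counts. The library kit did not mark strand, so reads from both could not be separated.

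*Runx1* encodes the DNA-binding subunit of a core binding factor, and lies on the minus strand at chr16:92601466-92826149. It had 0.200 TPM on day 3 DMSO, 1.34 TPM on day 4 DMSO and 0.086 TPM with ceramide, from 23, 135 and 12 counts. With ceramide it was 15.6-fold lower than DMSO on day 4 (log2 -3.96, -4.95 to -3.11). It was also the only one of the 9 called lower with ceramide than on day 3 DMSO, 2.33-fold lower (log2 -1.22, -2.36 to -0.15), where 9.39% of all genes were lower. The comparison of day 4 over day 3 DMSO gave a log2 ratio of 2.75 (2.10 to 3.45).

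*Runx1* is transcribed from a pair of starts, and both promoters are printed above. Transcripts from the downstream start took 0.200, 1.26 and 0.0283 TPM in the day 3 DMSO, day 4 DMSO and day 4 ceramide libraries, from 23, 121.6 and 3 counts. Transcripts from the upstream start took 0, 0.0864 and 0.0579 TPM, from 0, 13.4 and 9 counts. Most *Runx1* RNA in both DMSO libraries was thus assigned to the downstream start, while in the ceramide library 9 of the 12 counts were assigned to the upstream start. All 3 downstream counts with ceramide, and 8.67 of the 23 on day 3 DMSO, were assigned to a transcript that retains an intron and has no coding part. As for *Flt1*, these assignments are estimates without an interval, and a change of start with ceramide was not tested.

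**Figure D2:**
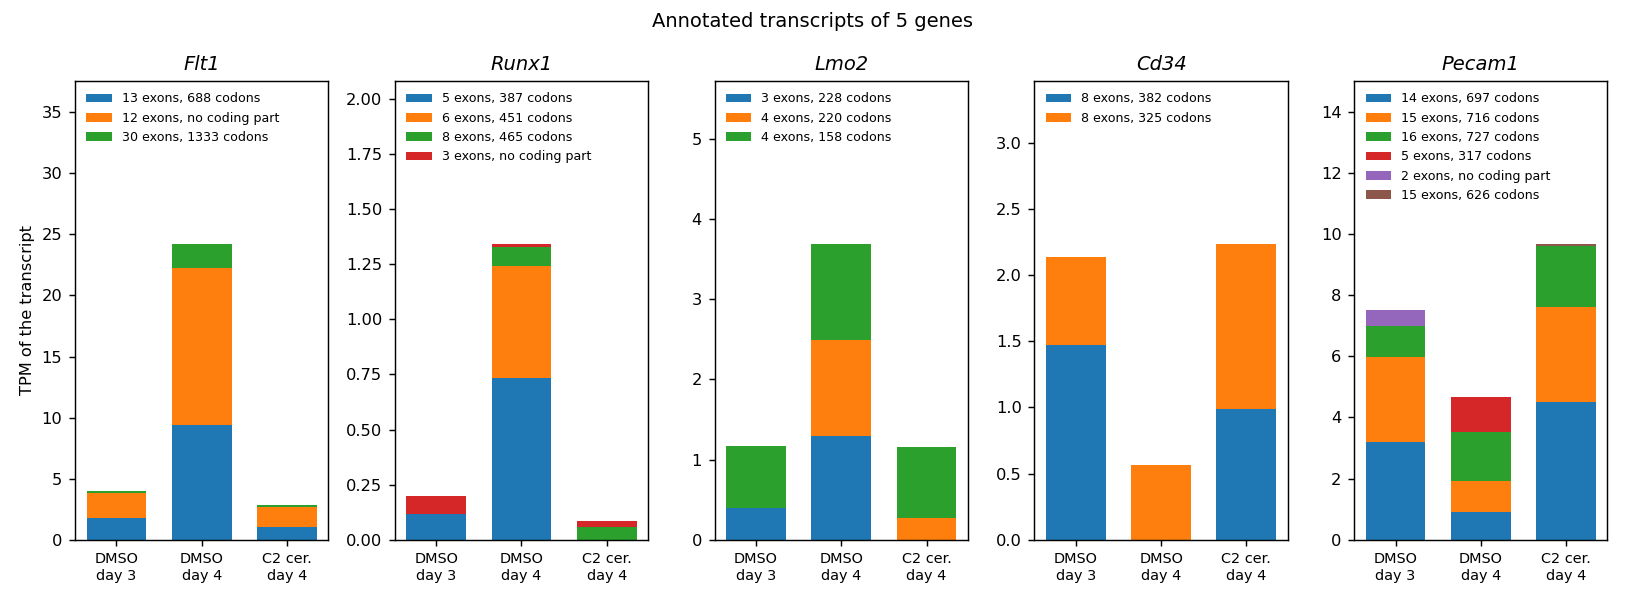
TPM of each annotated transcript that reached 5 counts in any library, stacked, for *Flt1*, *Runx1*, *Lmo2*, *Cd34* and *Pecam1* in the day 3 DMSO, day 4 DMSO and day 4 ceramide libraries. The full-length 30-exon transcript of *Flt1* took at most 8.17% of the *Flt1* TPM, and the 3 main coding transcripts of *Runx1* are visible mostly on day 4 DMSO.

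*Tal1* encodes the helix-loop-helix factor that commits mesoderm to blood, and lies on the plus strand at chr4:115056426-115071755. It had 0.126, 0.056 and 0.244 TPM in the day 3 DMSO, day 4 DMSO and day 4 ceramide libraries, from 10, 6 and 20 counts. These counts were near the minimum in all libraries, so *Tal1* was hardly detected while its partner *Lmo2* had 146 counts on day 4 DMSO. The log2 ratio of day 4 over day 3 DMSO was -1.17 with an interval that includes 0 (-2.91 to 0.43). The log2 ratio of ceramide over DMSO on day 4 was 2.12 (0.75 to 3.73). The reads were assigned to another *Tal1* transcript on day 4 DMSO than in the other two libraries, and where counts were divided by library totals instead of TPM, *Tal1* was no longer called lower on day 4 DMSO.

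*Cd34* encodes a sialomucin of endothelium and blood progenitors, and lies on the plus strand at chr1:194938819-194961279. It had 2.14 TPM on day 3 DMSO, 0.562 TPM on day 4 DMSO and 2.25 TPM with ceramide, from 144, 40 and 159 counts. *Cd34* was the mirror image of *Lmo2*, with day 4 DMSO low and the other two libraries close together (log2 ratio of day 4 ceramide over day 3 DMSO 0.08, -0.26 to 0.41). The log2 ratio was -1.93 (-2.47 to -1.41) for day 4 over day 3 DMSO, and the ceramide level was 4.01-fold higher than DMSO on day 4 (log2 2.00, 1.50 to 2.54). The transcript of 382 codons took 69.0% of the *Cd34* TPM on day 3 DMSO and 43.9% with ceramide, and no read was assigned to it on day 4 DMSO, when all 40 counts were assigned to the transcript of 325 codons. An antisense gene, Gm16897, overlaps *Cd34* and had at most 6 counts.

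*Pecam1* encodes an adhesion protein of endothelial junctions, platelets and ES cells, and lies on the minus strand at chr11:106654217-106750628. It had 7.53, 4.66 and 9.68 TPM in the day 3 DMSO, day 4 DMSO and day 4 ceramide libraries, from 665, 372 and 947 counts. It was the most abundant of the 10 genes on day 3 DMSO and with ceramide. The log2 ratio of day 4 over day 3 DMSO was -0.69 (-0.88 to -0.51), within 2-fold. With ceramide it was 2.08-fold higher than DMSO on day 4 (log2 1.06, 0.88 to 1.23), just past the threshold. On day 4 DMSO, 24.3% of its TPM was assigned to a transcript of 5 exons, which was at 0 in the other two libraries. With counts divided by library totals, its log2 ratios were -0.90 and 1.34.

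*Cdh5* encodes VE-cadherin, the adhesion protein that defines endothelial junctions, and lies on the plus strand at chr8:104101625-104144511. It had 5, 7 and 1 counts in the day 3 DMSO, day 4 DMSO and day 4 ceramide libraries, or 0.043, 0.059 and 0.008 TPM. A count of 0 allows a level of up to 3 counts in a library, and the 1 count with ceramide lay below that. *Cdh5* was under the minimum of 10 counts in every library, so it was barely detectable and its ratios were not read.

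**Figure D3:**
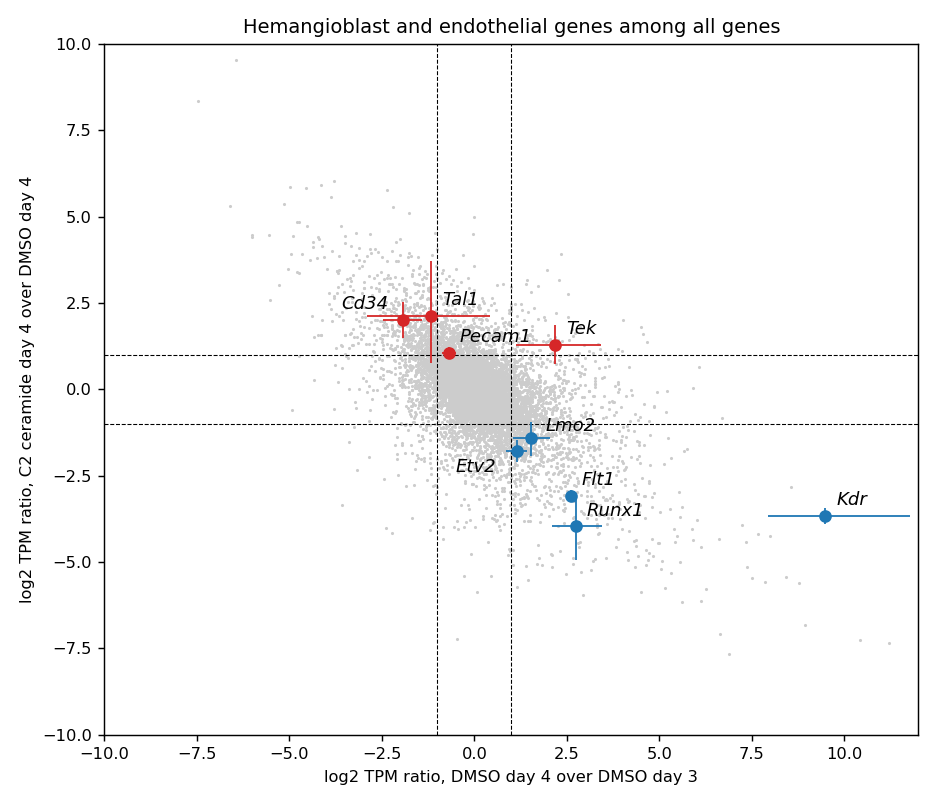
Log2 TPM ratio of day 4 DMSO over day 3 DMSO (horizontal) against day 4 ceramide over day 4 DMSO (vertical) for the 9 genes in use, with 95% count intervals, and for 16536 genes above 0 TPM in all libraries (grey); dashed lines mark 2-fold. *Kdr*, *Flt1*, *Runx1*, *Lmo2* and *Etv2* (blue) lie at the lower right, *Cd34* and *Tal1* at the upper left, and *Tek*, alone of the 9, at the upper right, and the axes share the day 4 DMSO library.

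The order of the levels changed between the libraries. On day 3 DMSO, *Pecam1* and *Etv2* were highest and their intervals overlapped, followed by *Flt1*, *Cd34* and *Lmo2*, each apart from the next. *Runx1*, *Tal1*, *Tek*, *Cdh5* and *Kdr* were at most 0.200 TPM, and neighbours in that order overlapped. On day 4 DMSO, *Flt1*, *Etv2* and *Kdr* led and were apart from each other. *Pecam1* and *Lmo2* overlapped below them, then came *Runx1*, then *Cd34* and *Tek*, which overlapped, and *Cdh5* and *Tal1* were lowest. With ceramide, *Pecam1* and *Etv2* led again and were apart, *Flt1* and *Cd34* overlapped, and *Lmo2*, *Kdr* and *Tek* overlapped as neighbours above *Tal1*, *Runx1* and *Cdh5*.

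Compared with day 3 DMSO, the ceramide library had 6 of the 9 genes within 2-fold, and 79.4% of all genes in use were within 2-fold. *Kdr* and *Tek* were higher, where 11.2% of all genes were higher, and *Runx1* was lower. The median log2 ratio of the 9 genes was 0.10, and that of all genes in use was 0.03. *Flt1*, *Etv2*, *Lmo2*, *Cd34*, *Pecam1* and *Tal1* were the genes within 2-fold of their day 3 DMSO level.

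The other VEGF and angiopoietin genes did not move in a single direction. Of 12 ligand and receptor genes, 11 were in use. On day 4 over day 3 DMSO, 5 were higher, 1 was lower and 5 were within 2-fold, with a median log2 ratio of 0.97. With ceramide on day 4, 3 were higher, 3 were lower and 5 were within, with a median of -0.26. The 3 higher were *Vegfd*, *Angpt1* and *Angpt2*, all near the detection limit. They had 3, 3 and 5 counts on day 4 DMSO and 11, 21 and 18 with ceramide. *Nrp1*, a co-receptor for VEGF-A and semaphorins, had 0.048, 5.66 and 0.028 TPM in the day 3 DMSO, day 4 DMSO and day 4 ceramide libraries, and was lower with ceramide by a log2 ratio of -7.66 (-9.94 to -6.11). *Plxnd1*, a semaphorin receptor, had a ratio of -2.96 (-3.81 to -2.20), *Pgf*, a ligand of FLT1, -1.85 (-2.38 to -1.35), and *Flt4*, the VEGF-C receptor, -0.93 (-1.22 to -0.64), which is within 2-fold. *Vegfa*, the ligand of KDR and FLT1, is outside the naming rule and was looked up for its role. It had 4.62, 12.1 and 18.2 TPM, with a log2 ratio of 0.58 (0.45 to 0.71) for ceramide over DMSO on day 4, within 2-fold. The ligand was thus highest in the library in which *Flt1* was lowest, while *Vegfa* and *Kdr* were both lowest on day 3 DMSO. *Tie1*, the partner of TEK, had at most 9 counts.

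Of 20 other transcription factor genes of blood and endothelium, 17 were in use. On day 4 DMSO, 8 were higher and 4 lower than on day 3, with a median log2 ratio of 0.68. With ceramide on day 4, 4 were higher, 8 were lower and 5 were within 2-fold, with a median of -0.13. *Sox17*, a factor of both definitive endoderm and arterial endothelium, had 0.515, 253.7 and 2.26 TPM in the day 3 DMSO, day 4 DMSO and day 4 ceramide libraries. *Hhex*, which is expressed in endoderm and in hemangioblasts, had 3.29, 40.9 and 3.33 TPM. *Nfatc1* was also lower with ceramide (log2 -2.17). *Sox7*, which acts with *Sox17* in early blood and endothelium and is also made in primitive endoderm, was higher, with 0.255, 0.108 and 0.805 TPM and a log2 ratio of 2.90 (1.94 to 4.02). *Erg*, *Lyl1* and *Gfi1b* had under 10 counts, and *Lyl1* was at 0 in all libraries.

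The genes of endothelial surfaces and junctions were mixed in level. Of 16 other endothelial surface and junction genes, 13 were in use, and with ceramide on day 4, 3 were higher, 2 lower and 8 within 2-fold, with a median log2 ratio of 0.57. On day 4 over day 3 DMSO, 2 were higher, 4 lower and 7 within, with a median of -0.29. *Mcam*, an adhesion protein of endothelium and other cells, followed the direction of *Pecam1*, with 9.08, 4.64 and 11.95 TPM and a log2 ratio of 1.36 (1.20 to 1.53) for ceramide over DMSO on day 4. *Nos3* had a ratio of 1.07 (0.39 to 1.79), and *Eng*, a TGF-β co-receptor gene, was 1.999-fold higher, just within the threshold. *Cldn5*, a tight junction gene, had -1.19. Their summed level was 126.1, 116.7 and 158.5 TPM in the day 3 DMSO, day 4 DMSO and day 4 ceramide libraries, most of it from *Egfl7*, a secreted protein gene, with 70.4, 63.7 and 85.7 TPM, and *Ramp2*, a co-receptor gene, with 34.3, 40.0 and 48.9 TPM. *Emcn* and *Icam2* were at 0 in all libraries and *Clec14a* had at most 7 counts. The list thus held genes at or near 0 beside well detected genes such as *Egfl7* and *Ramp2*. Outside the list, *Cdh5* was likewise near 0 and *Pecam1* was well detected.

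Of 14 blood cell genes, 12 were in use, and with ceramide on day 4, 2 were higher, 2 lower and 8 within 2-fold, with a median log2 ratio of 0.29. Their summed level was 39.6, 42.9 and 34.8 TPM in the day 3 DMSO, day 4 DMSO and day 4 ceramide libraries. *Hbb-y*, an embryonic globin gene, had a log2 ratio of 0.49 for ceramide over DMSO on day 4, with the reservation that globin genes can share reads. *Epor*, the erythropoietin receptor gene, had -1.16. *Alas2*, the heme synthesis gene of red cells, had at most 9 counts, and *Ptprc*, which encodes CD45, had 0, 0 and 13. *Ptprc* and *Hbb-bt*, each with at most 13 counts in any library, were the 2 called higher with ceramide. Of all genes in use, 9.97% were higher and 12.3% lower in that comparison.

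A list of early mesoderm genes, not all of which act upstream of the hemangioblast, was set beside these results. All 12 were in use, and 10 were higher on day 4 DMSO than on day 3, with a median log2 ratio of 5.21. With ceramide on day 4, none was higher, 10 were lower and 2 stayed within 2-fold, with a median of -3.79. Their summed level was 52.5, 499.9 and 58.5 TPM in the day 3 DMSO, day 4 DMSO and day 4 ceramide libraries. *Mesp1*, the earliest factor of cardiovascular mesoderm, had 2440 counts on day 4 DMSO and 15 with ceramide, and *Mesp2*, its neighbour and relative, had 1195 and 0. *Hand1*, a factor of extraembryonic and lateral mesoderm, had a log2 ratio of -4.25 (-5.03 to -3.57). *Kdr*, *Flt1* and *Runx1*, with log2 ratios of -3.65, -3.09 and -3.96 for the same comparison, were close to the median of this list, and *Etv2* and *Lmo2*, at -1.78 and -1.42, were nearer to 0.

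Markers of undifferentiated cells were set beside *Cd34* and *Pecam1*. Of 12 naive pluripotency markers, 10 were higher with ceramide than with DMSO on day 4 and 2 were within 2-fold, with a median log2 ratio of 1.46, and their summed level was 404.8, 325.6 and 859.6 TPM in the day 3 DMSO, day 4 DMSO and day 4 ceramide libraries. *Nr0b1* had a ratio of 2.67, *Tbx3* 1.75, *Klf4* 1.70 and *Zfp42* 1.69. *Pecam1*, at 1.06, and *Cd34*, at 2.00, were in the wide range of these markers, 0.42 (*Nanog*) to 2.67. So were *Tek* (1.29) and *Tal1* (2.12), which were also higher with ceramide, so the overlap is not particular to *Pecam1* and *Cd34*. On day 4 over day 3 DMSO all 12 markers were within 2-fold, as was *Pecam1* (log2 ratio -0.69), while *Cd34* was 3.80-fold lower. The part of these cells in the result was not tested.

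Markers of other cells of an EB that can express these genes are given here too. Of 11 trophoblast markers, 8 were in use, with summed levels of 35.9, 53.8 and 50.5 TPM, and 1 was higher, 2 were lower and 5 were within 2-fold with ceramide on day 4. The 2 lower were *Cdx2*, with a log2 ratio of -1.46, and *Hand1*, with -4.25, which is also in the mesoderm list above. *Tpbpa* had -0.66 and *Ascl2* 0.32, and the defining trophoblast genes *Elf5*, *Prl3d1* and *Prl2c2* had under 10 counts. Of 12 visceral endoderm markers, 11 were in use. They summed to 1991, 1829 and 2930 TPM. Most of this was *Apoe*, with 1948, 1471 and 2875 TPM (log2 ratio 0.97), so the sum does not show the direction of the other markers. With ceramide on day 4, 1 was higher, 6 were lower and 4 were within 2-fold. Among the lower were *Foxa2* (-4.46) and *Gata4* (-3.72), which definitive endoderm and mesoderm also express. *Sox17*, also in the transcription factor list above, was lower too. The others lower were *Ttr*, *Hnf4a* and *Apoa1*, each with at most 30 counts in any library. The part of these cells in the levels of *Flt1* and *Kdr* was not tested.

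**Figure D4:**
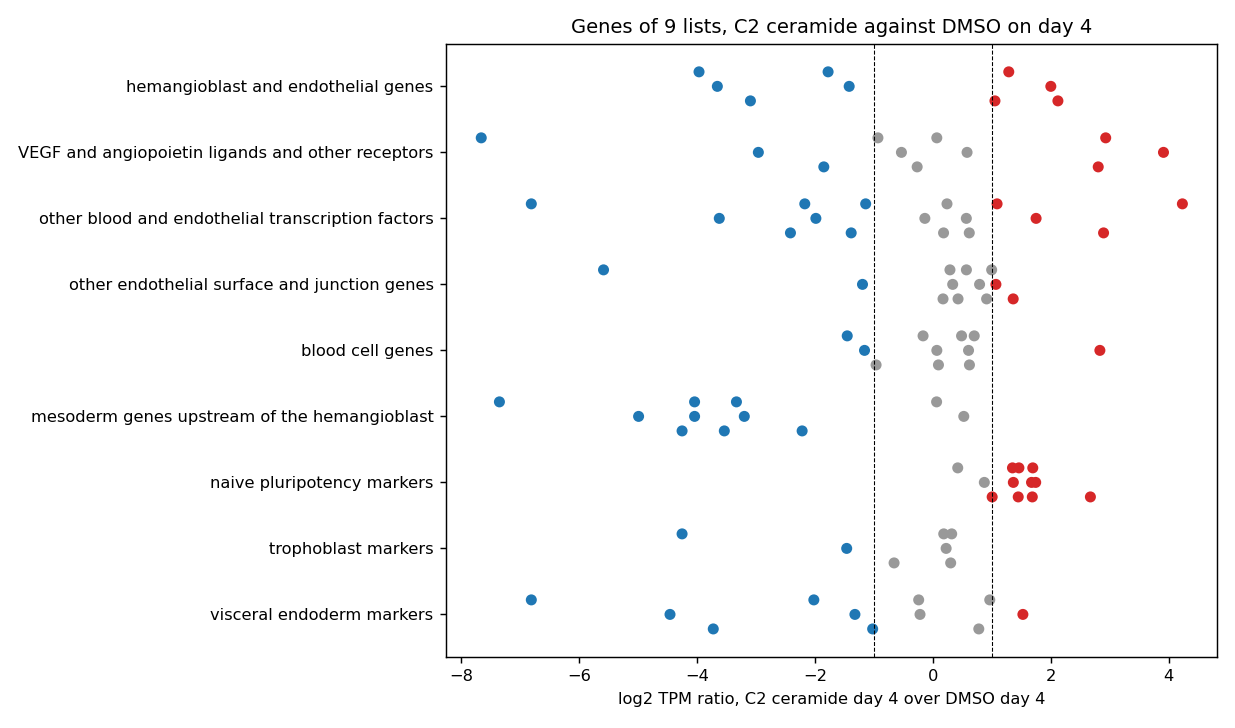
Log2 TPM ratio of day 4 ceramide over day 4 DMSO for the hemangioblast and endothelial genes (top) and 8 other gene lists, 1 point per gene in use with counts in both libraries; dashed lines mark 2-fold, with genes below in blue and above in red. The hemangioblast and endothelial genes lie on both sides, while 10 of 12 naive pluripotency markers are higher. Of the 11 plotted early mesoderm genes, labelled as upstream of the hemangioblast, 9 are lower.

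The genes nearest to each of the 8 genes with at least 100 counts were found by the distance between their log2 ratios in the plane of both day 4 comparisons, which rests on 3 libraries only. The 3 genes nearest to *Flt1* were *Pifo*, *Fam89a* and *Fgf8*, a growth factor of the primitive streak, at distances of 0.0099, 0.138 and 0.174. *Fgf8* itself had 54.0, 351.1 and 37.1 TPM in the day 3 DMSO, day 4 DMSO and day 4 ceramide libraries. *Lmo2* lay nearest to *Zcchc12*, *Gfpt2* and *Smad1*, which encodes a transducer of BMP signals, at distances of at most 0.0221. *Etv2* lay nearest to *Fam210b*, *Slc39a1* and *Il18*, and *Runx1* to *St3gal6*, *Slit1* and the Notch ligand gene *Dll3*. *Cd34* lay nearest to *Zfp989*, *Slc7a3* and *Magee1*, *Pecam1* to *Lrr1*, *Glb1l* and *Clec16a*, and *Tek* to *Gab2*, *Wnt9a* and *Lpo*. *Kdr* had no close neighbour, since *Pcsk5*, *Sprr2a2* and *Emx2* were at distances of at least 1.04, and *Pcsk5* and *Emx2* were listed at 0 TPM on day 3 DMSO.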

How the data were processed

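RNA of E14K EBs was measured in 3 libraries, 1 per condition, and samples were grouped by their titles. The authors treated RNA with DNase I, made cDNA with SMART-Seq v4 and libraries with Nextera XT, and ran DRAGEN 3.6.3 with GRCm38 and GENCODE M25. The tables they deposited give 55487 genes and 142699 transcripts in TPM. The same deposited tables give estimated counts, which need not be whole and are not normalized. The length scaling of TPM rests on the transcript assignments.

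Ratios of TPM used NumPy 2.4.6, SciPy 1.17.1 and pandas 2.3.3 under Python 3.11.15, with 0.001 in place of 0 TPM. Figures used Matplotlib 3.10.9. Intervals are Clopper-Pearson 95% intervals, conditional on the summed rounded counts of both libraries, moved to the TPM ratio. The steps were tested on simulated counts with counting error only, for genes averaging at least 100 counts and without transcript assignment. Genes with lower averages were not simulated. The members and gene lists were chosen with earlier results of these data known. The text names all 10 genes, the 4 genes of each other list with the largest ceramide to DMSO ratio in either direction on day 4 among those with at least 50 counts, and the 3 protein-coding genes (at least 100 counts) nearest to each of the 10 genes that had at least 100 counts. Genes named outside this rule, such as *Vegfa*, *Ptprc* and genes under 10 counts, were chosen by role after their values were seen. Alternatives were other added TPM values, count minimums and folds, CPM, edgeR 4.0.16 TMM factors and DESeq2 1.42.0 size factors in R 4.3.3 (on rounded counts, with 0 set to 0.5), and protein-coding transcripts only. Exon and codon numbers came from GENCODE M21, and promoters from RefSeq. Reads were not analysed here.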

Additional observations from a re-analysis of the deposited data

How the results depend on the processing

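No paired analysis was possible because each condition had 1 library, and for the same reason no library could be left out of a condition. No called ratio among the 30 ratios of the 10 genes changed sign under the alternatives run. With 0.1 TPM added, 26 of the 30 ratios stayed within their intervals, with 1 TPM added 16, with CPM, TMM or DESeq2 scaling 28 each, and with protein-coding transcripts alone 29. Of the genes higher on day 4 over day 3 DMSO, 4 instead of 6 remained with 1 TPM added (*Runx1* and *Tek* lost). At 4-fold 4 remained (*Etv2* and *Lmo2* lost), and 5 where the whole interval had to pass 2-fold (*Etv2* lost). Of the genes lower on day 4 over day 3 DMSO, 1 instead of 2 remained with 0.1 or 1 TPM added, with CPM, TMM or DESeq2 scaling, with at least 50 counts or where the whole interval had to pass 2-fold, and 0 remained at 4-fold. At 1.5-fold, 3 were lower (*Pecam1* added). Of the genes higher with ceramide over DMSO on day 4, 1 instead of 4 remained with 1 TPM added and where the interval had to pass 2-fold (*Cd34*), and 2 at 4-fold (*Cd34* and *Tal1*). With at least 50 counts, 3 remained (*Tal1* lost). At 4-fold, 3 genes instead of 5 were lower (*Flt1*, *Kdr* and *Runx1*). With 1 TPM added or by the interval, 4 were lower (*Lmo2* lost), and with a minimum of 1 count, 6 (*Cdh5* added). For ceramide over day 3 DMSO, 0 instead of 2 genes were higher with 1 TPM added, and 3 at 1.5-fold (*Tal1* added). There, 0 instead of 1 were lower with 0.1 or 1 TPM added, at 4-fold or by the interval, and 2 with a minimum of 1 count (*Cdh5* added) or at 1.5-fold (*Etv2* added).

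The shares of all genes called moved by over 1.5 times with the settings that follow. With 1 TPM added they were 3.79% higher and 1.59% lower for day 4 over day 3 DMSO, 2.51% and 3.49% for ceramide over DMSO on day 4, and 2.31% and 1.46% for ceramide over day 3 DMSO. In the same order they were 8.44% and 4.93%, 6.05% and 7.39%, and 6.85% and 4.58% with at least 50 counts. With at least 1 count they were 19.7% and 15.9%, 15.4% and 20.4%, and 16.8% for the last lower share. At 1.5-fold they were 20.4% and 15.4%, 16.4% and 19.5%, and 18.2% and 15.7%. At 4-fold they were 6.58% and 3.74%, 4.26% and 5.99%, and 5.18% and 4.17%. By the interval they were 6.96% and 3.78%, 4.87% and 6.3%, and 5.2% and 3.87%. The depth limits *Tal1*, *Tek*, *Runx1*, *Cdh5* and *Kdr* most, since each had 12 counts or fewer in at least 1 library. For *Kdr* this was day 3 DMSO, with 3 counts.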
